A study of Homo sapiens with 5 samples.

Results

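The genes described here are 9 neuronal genes in SVG-10B1 cells, out of 57905 genes with counts, and they fall into 4 roles. SLC6A5 and GAD1 serve glycine and GABA transmission, RAB3C serves vesicle release, INA, NEFL, NEFM and NEFH are neurofilament proteins, and TUBB3 and MAP2 are microtubule proteins of neurons. They were chosen by their symbols after their values in edited and wild-type cells had been seen, so those values are given as a description and without a test. SVG-10B1 is an established human astroglial cell line, and gene expression was measured in it by RNA sequencing of total RNA. The edited cells carry the R132H substitution in 1 allele of IDH1, the gene of cytosolic isocitrate dehydrogenase, beside a WT allele, and came as clone 2 (1 library) and clone 6 (2 libraries). The unedited line, which the labels call wild-type and number clone 1, gave 2 libraries. Every group was grown in the same serum medium, each edited group is 1 clone, and the labels do not say whether replicates were separate cultures, so p-values measure the spread between these libraries, which may be technical. Counts per gene do not show which IDH1 allele was read.

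Neurons that release glycine or GABA keep these transmitters in synaptic vesicles. The glycine transporter encoded by SLC6A5 recovers glycine at nerve terminals, and glutamate decarboxylases, of which GAD1 encodes one, make GABA from glutamate. RAB3 proteins are small GTPases that sit on synaptic vesicles and bind RIM scaffolds at release sites. Neurofilaments assemble from light, medium and heavy chains together with alpha-internexin, the product of INA, and fill axons. Many neuronal genes are held silent in other cell types by the repressor REST.

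The sequences before the RefSeq start of the 4 members that were higher in every edited library are shown, because these members share a direction, and each run is 250 bases of the + strand of GRCh38.p14 with CG dinucleotides in capitals. They lie at chr11:20599358-20599607 for SLC6A5, chr5:58582825-58583074 for RAB3C, chr10:103276888-103277137 for INA and chr2:170816637-170816886 for GAD1.
SLC6A5: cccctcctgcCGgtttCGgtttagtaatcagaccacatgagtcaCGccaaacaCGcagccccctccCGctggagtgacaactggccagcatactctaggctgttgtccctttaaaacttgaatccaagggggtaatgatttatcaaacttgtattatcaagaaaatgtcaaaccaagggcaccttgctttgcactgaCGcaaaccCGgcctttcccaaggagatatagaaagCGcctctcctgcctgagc
RAB3C: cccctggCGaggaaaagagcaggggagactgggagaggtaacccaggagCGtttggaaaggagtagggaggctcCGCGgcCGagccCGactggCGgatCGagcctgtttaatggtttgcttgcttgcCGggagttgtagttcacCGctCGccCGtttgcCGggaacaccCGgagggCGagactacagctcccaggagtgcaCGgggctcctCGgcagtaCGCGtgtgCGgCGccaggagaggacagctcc
INA: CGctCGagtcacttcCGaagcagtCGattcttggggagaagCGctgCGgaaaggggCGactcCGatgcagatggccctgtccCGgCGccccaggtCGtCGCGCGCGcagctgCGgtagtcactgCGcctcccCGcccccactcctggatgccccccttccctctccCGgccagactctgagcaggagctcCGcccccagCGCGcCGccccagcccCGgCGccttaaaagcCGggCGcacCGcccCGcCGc
GAD1: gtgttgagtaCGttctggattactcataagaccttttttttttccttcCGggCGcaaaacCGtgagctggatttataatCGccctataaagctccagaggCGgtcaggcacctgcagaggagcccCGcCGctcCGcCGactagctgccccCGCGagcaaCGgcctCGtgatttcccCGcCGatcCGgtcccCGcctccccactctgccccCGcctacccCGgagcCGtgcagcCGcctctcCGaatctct
RefSeq promoter sequences were matched by symbol for 6 of the 9 members. The SLC6A5 window held 8 CG dinucleotides, and 43.7% of the 35116 promoters of the table held fewer. The windows of RAB3C, INA and GAD1 held 21, 30 and 23, against a median of 11 over all promoters. The 4 windows that go with the higher members therefore do not share 1 base composition. A search for 3 motifs on both strands, chosen after the values were seen, covered TATAAA and the letters GGACAGC and CAGCACC, which are parts of the element that REST binds. TATAAA began 166 bases before the GAD1 start on the + strand and on the - strand with its leftmost base 179 bases before the start, and it occurs in 10.7% of all promoters of this length. GGACAGC began 10 bases before the RAB3C start and occurs in 4.76% of promoters. CAGCACC, which 6.16% of promoters hold, was in none of the 4 windows.

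Reads on genes came to between 13572114 and 16559077 in edited libraries and to 17603317 and 21881726 in wild-type libraries, and ribosomal RNA genes took 0.417 to 9.79% of edited and 2.24 and 7.23% of wild-type reads. Values are given as CPM, the usual depth-normalised read counts, on library sizes scaled by TMM, and 3 reads correspond to between 0.138 and 0.229 CPM. Clone 2 and clone 6 replicate 1 lay closest of all pairs, with a median absolute difference of 0.10 in log2 CPM, against 0.29 between the clone 6 replicates and 0.15 between the wild-type replicates. Over genes with at least 100 reads in the pair, the median chi-square of their counts was 0.715, against 0.455 from counting error alone, 6.69 for the clone 6 replicates and 1.97 for the wild-type replicates. Libraries with different clone labels were thus more alike than the replicates of 1 clone, and results are also given with these libraries left out or summed. Markers of the labelled astroglial cells were mixed. AQP4 was at 0 in every library, and GFAP, the astrocyte intermediate filament, had 0.312 to 0.612 CPM in edited and 0.385 and 0.415 CPM in wild-type libraries. The gap junction gene GJA1 averaged 388 CPM in edited and 162 CPM in wild-type cells, CLU 115 CPM in edited and 35.9 CPM in wild-type cells, and the glutamine synthetase gene GLUL 34.8 CPM in edited and 71.9 CPM in wild-type cells.

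SLC6A5 had reads in every edited library and none in wild type. Clone 2 gave 177 reads, and clone 6 gave 161 in replicate 1 and 183 in replicate 2, against 0 in both wild-type libraries. The CPM were 11.4 in clone 2, with 12.3 and 11.4 in clone 6, a mean of 11.7 ± 0.52 (SD, n = 3). The edited libraries lay close together, and the level was at least 71.1-fold higher than the largest value that 3 reads make in a wild-type library. Only 3 genes of all those counted had at least 10 reads in each edited library with none in either wild-type library, a count made after seeing the data, and SLC6A5 was the most abundant of them. The others were RP11-20J1.1 and PAGE1, while 32 genes showed the reverse. The reverse asked for at least 10 reads in each of only 2 libraries, both deeper, so these 2 counts are not on like terms.

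GAD1 was detected in all 5 libraries and was higher in each edited one. It had 12.2 CPM in clone 2, with 11.9 and 13.8 CPM in clone 6, against 5.31 and 5.05 CPM in wild type. The groups did not overlap, with means of 12.6 ± 1.02 CPM in edited (SD, n = 3) and 5.18 ± 0.18 CPM in wild-type cells (SD, n = 2), a 2.44-fold difference. An antisense gene covers 5.68% of the GAD1 exon bases and had 7 reads in all; the sources used here do not say whether strand was used in counting.

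RAB3C followed SLC6A5, with 129 reads in clone 2 and 92 in each clone 6 library, against 1 and 0 reads in wild-type replicates 1 and 2. These are 8.31 CPM in clone 2, with 7.04 and 5.75 CPM in clone 6, against 0.0462 and 0 CPM in wild type. The edited mean was 7.03 ± 1.28 CPM (SD, n = 3), and clone 2 was the highest of the 3. With a single wild-type read the ratio of edited to wild-type rates was 280, with a 95% counting interval of 49.8 to 11084.

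Among the neurofilament genes INA had most reads, at 5.54 CPM in clone 2, with 7.34 and 6.93 CPM in clone 6, against 0.462 and 1.15 CPM in wild type. All edited libraries lay above both wild-type ones, and the means were 6.61 ± 0.94 CPM in edited (SD, n = 3) and 0.808 ± 0.49 CPM in wild-type cells (SD, n = 2), an 8.18-fold difference. The neurofilament chains that INA assembles with were at or near 0. NEFL and NEFM had 0 reads in every library, which allows at most 3 reads in each. NEFH, the heavy chain, had 2, 4 and 6 reads in clone 2 and clone 6 replicates 1 and 2, against 5 and 4 reads in wild type, so its groups overlapped.

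The microtubule members did not share the direction of INA. TUBB3, the beta-tubulin used to mark neurons, had 3.54 CPM in clone 2, with 3.98 and 1.56 CPM in clone 6, against 3.42 and 3.63 CPM in wild type. Its groups overlapped and only clone 6 replicate 2 was apart, at 1.56 CPM. Counts of TUBB3 are uncertain, since another coding gene on the same strand covers 66.5% of the 1944 bases that are coding in any of its transcripts (0 reads were assigned to that gene), and reads in shared bases can go uncounted. MAP2, a dendritic microtubule protein, was near 0 with 2, 0 and 1 reads in edited libraries, against 9 and 6 in wild type, a ratio of 0.179 with a 95% counting interval of 0.0332 to 0.632. NEFL, NEFM, NEFH and MAP2 were too low for the fit across genes, which included 5 of the 9 members. Intervals and floors cover counting error only.

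In all, 4 members had every edited library above both wild-type libraries, 1 lay below and 4 overlapped or were at 0. Of the 16471 genes tested, 26.1% had every edited library above and 25.3% every edited library below both wild-type ones. By edgeR's quasi-likelihood test 7.64% were called higher and 9.49% lower in edited cells, at a Benjamini-Hochberg adjusted p under 0.05. Since the members were selected on this contrast, nothing is read from their count. In these bulk libraries, fewer cells of a type and less RNA per cell cannot be told apart.

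**Figure D1:**
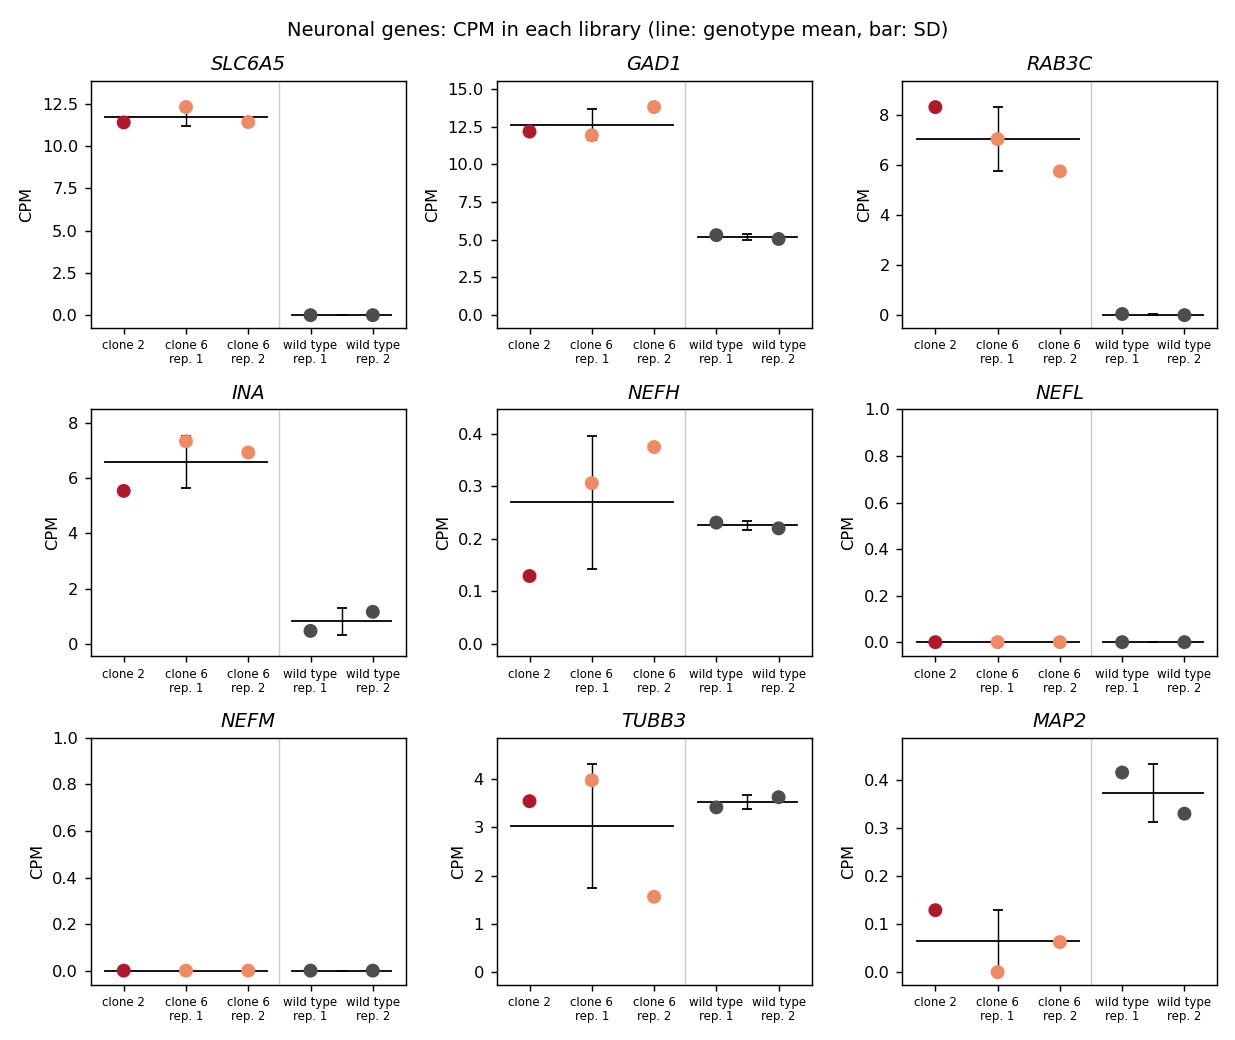
CPM of each of the 9 neuronal genes in the 5 libraries (points), with the edited libraries left of the wild-type ones; lines are genotype means and bars SD (n = 3 edited, n = 2 wild type), and each panel has its own axis. SLC6A5 and RAB3C are at or near 0 in wild type, INA and GAD1 are higher in all edited libraries, and the edited and wild-type libraries overlap or are near 0 in the other panels.

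The difference between the clones was not the contrast that chose the members, and it was tested. The values of every edited library had been seen, however, so genes high in all of them may have been favoured. Small clone differences are therefore no support for likeness of the clones. For SLC6A5, with 0 reads in wild type and 1 library of clone 2, the gene's own residual spread came from the 2 clone 6 libraries. In a fit with 3 groups, clone 6 minus clone 2 was 0.06 on the log2 scale for SLC6A5 (SE 0.261, 95% interval -0.59 to 0.71) and 0.08 for GAD1 (SE 0.231, -0.47 to 0.64). RAB3C had -0.38 (SE 0.337, -1.19 to 0.43), INA 0.36 (SE 0.423, -0.65 to 1.38) and TUBB3 -0.38 (SE 0.531, -1.65 to 0.90). The edgeR adjusted p was 1 for each of the 5. The intervals allow clone differences of over 1 log2 unit for RAB3C, INA and TUBB3, so they do not show that the clones were alike. Of all genes tested, 0 (0%) were called, 114 had an unadjusted p under 0.05, and DESeq2 called 2. Without clone 6 replicate 1 the comparison is 1 library against 1, with all residual spread from the 2 wild-type libraries, so the 872 genes that edgeR then called are no test of a clone difference. In that comparison TUBB3 was -1.18. Without clone 6 replicate 2, likewise 1 library against 1, the sign turned for GAD1 (-0.032) and TUBB3 (0.16).

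Levels can be set against each other only per length. Per kb of exon in GENCODE 29, INA had most reads in edited cells at 2.04 CPM per kb, then SLC6A5 at 1.65, GAD1 at 1.53, RAB3C at 0.728 and TUBB3 at 0.683, with NEFH at 0.0713 and MAP2 at 0.0055. In wild type the order was TUBB3 at 0.795 CPM per kb, GAD1 at 0.629, INA at 0.25, NEFH at 0.0595, MAP2 at 0.0322 and RAB3C at 0.0024. In edited cells the libraries of INA and SLC6A5 overlapped in level per kb, as did those of SLC6A5 and GAD1 and those of RAB3C and TUBB3. Within a library INA lay above SLC6A5 in 3 of 3, SLC6A5 above GAD1 in 2 of 3 and RAB3C above TUBB3 in 2 of 3, so of these 3 pairs only INA and SLC6A5 had the same order in every edited library. With the coding length of the longest coding transcript in place of exon length, the order in edited cells was RAB3C at 10.3, GAD1 at 7.09, SLC6A5 at 4.90, INA at 4.41 and TUBB3 at 2.24 CPM per kb, so the order rests on the length used. On exon length 51.0% of 19263 coding genes lay below SLC6A5 and 53.4% below INA in edited cells.

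**Figure D2:**
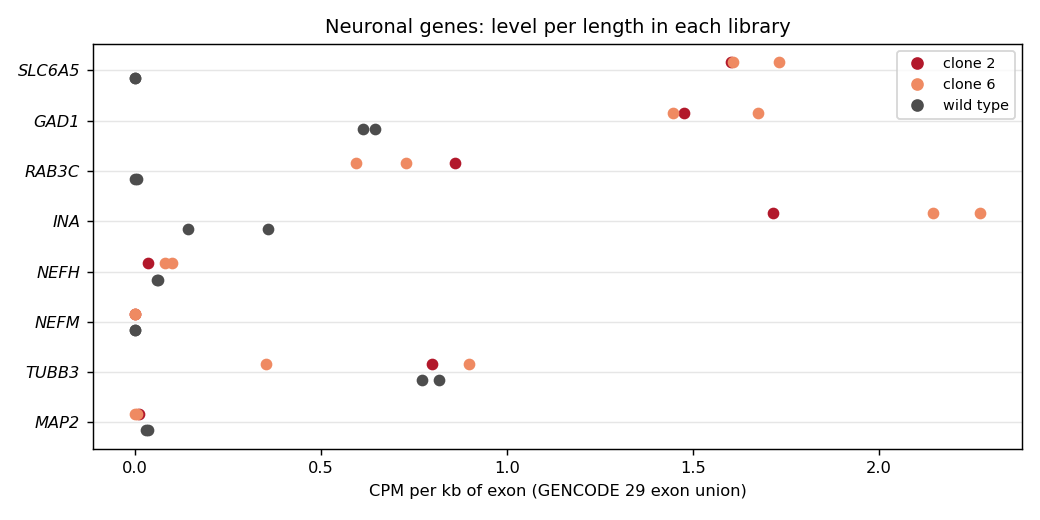
Level of the members per kb of exon in each library (points; clone 2, clone 6 and wild type by colour), on a linear axis in CPM per kb; NEFL has no length in the annotation used and is left out. INA, SLC6A5 and GAD1 lie between 1.45 and 2.27 CPM per kb in edited cells, while GAD1 and TUBB3 are the highest in wild type.

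The remaining genes of 6 neuronal lists, chosen with earlier results of these data known, are set beside the members' direction. Among 26 other genes of inhibitory transmission 7 were tested and 1 rose: GLRB, the glycine receptor beta subunit, averaged 15.2 ± 1.08 CPM in edited cells (SD, n = 3), against 9.82 ± 0.96 CPM in wild type (SD, n = 2), without overlap of the libraries (log2 fold change 0.63, edgeR adjusted p = 0.0271). The list median was 0.45, against 0.02 over all genes tested. SLC6A9, the other glycine transporter, had 8.76 CPM in clone 2, with 9.18 and 42.3 CPM in clone 6, against 4.06 and 5.71 CPM in wild type, and was not called (edgeR adjusted p = 0.113). GAD2, the other glutamate decarboxylase gene, and SLC32A1, the vesicular transporter of GABA and glycine, had 0 reads in every library.

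Of 41 other vesicle release genes 29 were tested, 5 rose, 2 fell and the median log2 fold change was 0.11. RIMS2, a RIM scaffold that binds RAB3, had 2.83 CPM in clone 2, with 2.60 and 2.87 CPM in clone 6, against 0.323 and 0.110 CPM in wild type (log2 fold change 3.59, edgeR adjusted p = 0.00275). In parentheses here and after, the first value is the log2 fold change of edited minus wild type and the second the edgeR adjusted p. The RIM paralogs RIMS1 (2.41, 0.0339) and RIMS3 (0.92, 0.0303) rose as well, as did the complexin CPLX1 (2.07, 0.0335) and the calcium sensor DOC2A (1.35, 0.0119). RIMS1 differed among edited libraries, at 5.60 CPM in clone 2, with 3.29 and 1.56 CPM in clone 6. Among those that fell was the priming factor UNC13B (-0.36, 0.0399). Within the RAB3 family RAB3B was the most abundant at 402, 393 and 347 CPM in edited and 337 and 374 CPM in wild-type libraries, and neither it nor RAB3A and RAB3D was called (edgeR adjusted p = 0.546, 0.381 and 0.0917).

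Among 6 tested intermediate filament genes PRPH, the peripherin of peripheral neurons, rose, at 0.838 CPM in clone 2, with 0.918 and 0.999 CPM in clone 6, against 0.323 and 0.330 CPM in wild type (log2 fold change 1.47, edgeR adjusted p = 0.045). Of 22 tested genes of neuronal tubulins and microtubule proteins 6 rose and 1 fell, with a median log2 fold change of -0.04. DPYSL5, of the collapsin response mediator family, had 3.16 CPM in clone 2, with 3.37 and 2.06 CPM in clone 6, against 0.185 and 0.275 CPM in wild type (3.61, adjusted p = 0.00288). The axonal kinesin KIF1A (2.38, 0.0124), TUBA4A (1.49, 0.0216), KIF5C (0.60, 0.00811), DPYSL2 (0.48, 0.0286) and MAP4 (0.38, 0.0332) also rose. TUBB2B, a tubulin of developing neurons, fell, at 7.41 CPM in clone 2, with 7.50 and 8.18 CPM in clone 6, against 23.5 and 28.8 CPM in wild type (-1.76, 0.000843).

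In the list of neuronal fate and REST system genes 22 of 50 were tested, 3 rose and 2 fell, and the median log2 fold change was -0.04. REST had 89.2 CPM in clone 2, with 86.0 and 87.6 CPM in clone 6, against 90.6 and 80.4 CPM in wild type (0.03, edgeR adjusted p = 0.832). DLX5, a homeobox factor of GABA neurons (2.45, 0.0133), the neuropeptide precursor VGF (1.51, 0.0257) and the splicing factor PTBP2 (0.76, 0.0155) rose. DLX5 rested on 44 reads in edited and 7 in wild-type libraries. Its paralogs DLX1 (-0.41, 0.0824) and DLX2 (-0.50, 0.218) went the other way, lower in every edited library, and were not called. The secretogranin SCG2 fell by 1.32 (0.00834). BEX1 had 1 read in all edited libraries, against 76 in wild type, a ratio of 0.0118 with a 95% counting interval of 0.000294 to 0.0675. Of 25 neuron markers 8 were tested: the NMDA receptor subunit GRIN1 rose (4.37, 0.00944), and NRXN3 fell with 1 read in edited against 55 in wild-type libraries (ratio 0.0163, 95% counting interval 0.000404 to 0.0944).

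Over the 6 lists together 92 other genes were tested, of which 17 (18.5%) were called higher and 6 (6.52%) lower, beside 7.64 and 9.49% of all genes tested, with a median log2 fold change of 0.04 beside 0.02. The lists also hold genes abundant in wild type, such as VIM at a mean of 626 CPM and MAP4 at 186 CPM. These shares are therefore not those of neuron-specific genes alone. Because clone 2 has 1 library, the low-count filter could take in a gene on 1 library, in the lists and elsewhere alike. GRIN1 (0.0923 and 0.110 CPM in wild type), RIMS2 (0.323 and 0.110) and DPYSL5 (0.185 and 0.275) so entered through edited libraries. BEX1 and NRXN3 entered through wild type. How far the shares depend on such entry was not tested. Calls of these list genes depended on single libraries. Of the 23 called, only RIMS2, TUBB2B and BEX1 kept their call under all 13 alternatives of the edgeR fit, with highest adjusted p of 0.0277, 0.0162 and 0.0391. Without wild-type replicate 1, 20 of the 23 lost it, without wild-type replicate 2, 17, without clone 6 replicate 1, 13, without clone 2, 11, and without clone 6 replicate 2, 1. Summing clone 2 with clone 6 replicate 1 lost 12. The highest adjusted p was 0.208 for RIMS1, 0.204 for CPLX1, 0.205 for RIMS3, 0.237 for PRPH, 0.211 for GLRB, 0.113 for GRIN1 and 0.0534 for DPYSL5. DLX5 and PRPH were too low to be tested with a filter of 1 CPM in 2 libraries. Leaving out a library also leaves fewer samples, and these effects were not told apart.

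**Figure D3:**
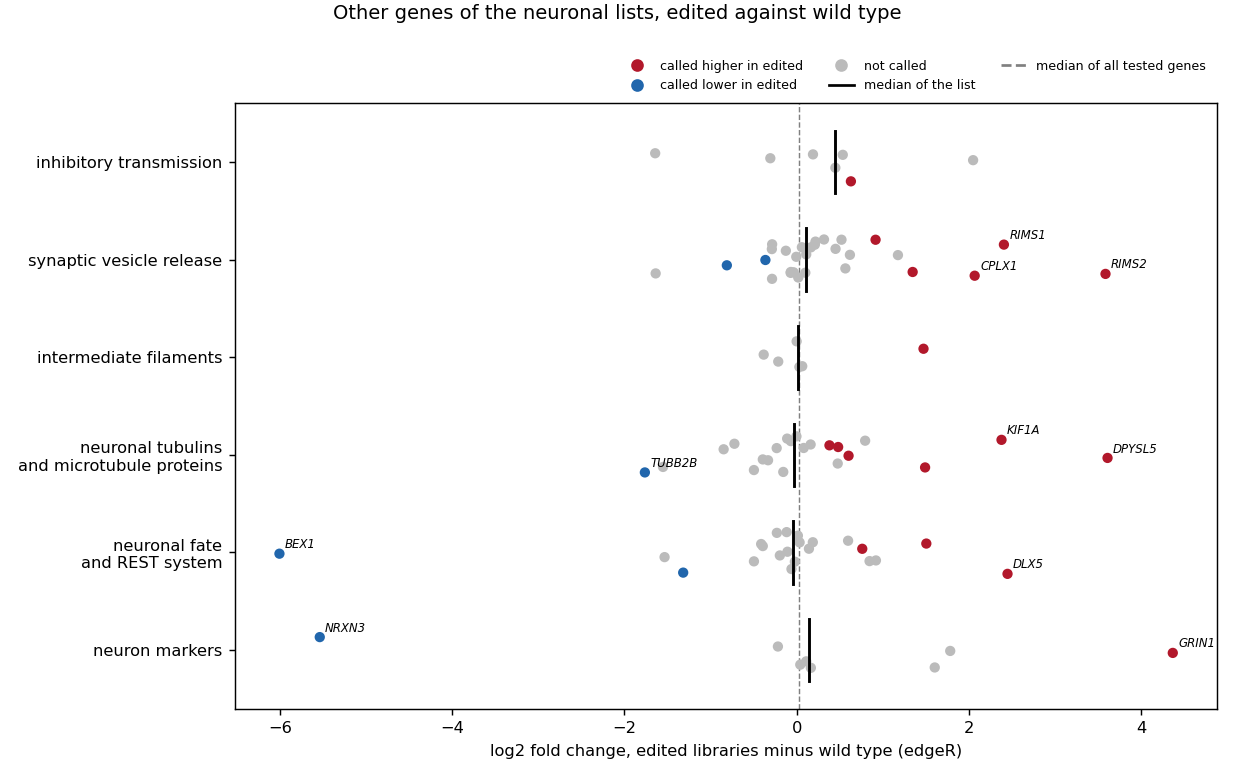
Log2 fold change (edited minus wild type) of every tested gene that is not a member in 6 neuronal lists (points), coloured by the edgeR call; black bars are list medians and the dashed line the median of all tested genes. Medians lie between -0.04 and 0.45, and of the 92 genes 17 were called higher and 6 lower.

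**Figure D4:**
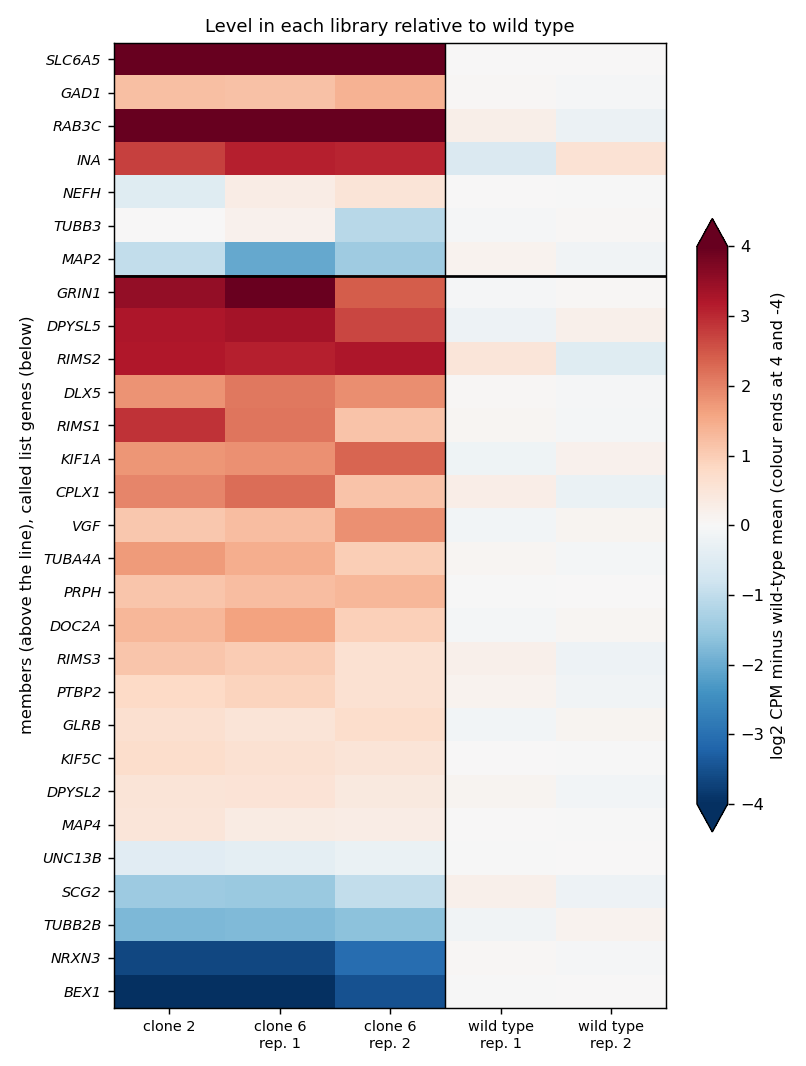
Log2 CPM of each library minus the wild-type mean (colour, ending at 4 and -4) for the members with reads (above the line) and called genes of the 6 lists (below), with the 3 edited libraries left of the 2 wild-type ones. SLC6A5 and RAB3C exceed the colour range in every edited library, and RIMS1 and GRIN1 are lower in clone 6 replicate 2 than in clone 2.

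The summed level of the 25 neuron markers was 29.3 CPM in clone 2, with 32.4 and 17.4 CPM in clone 6, against 24.0 and 21.0 CPM in wild type, so the groups overlapped. Of them 7 were at 0 in every library, among them STMN2, ELAVL4, DCX, SLC17A6, CHAT and TH. Lists of other cell types also held called genes. Over all genes tested, 7.64% were called higher and 9.49% lower in edited cells. Every edited library lay above both wild-type ones for 26.1% of them and below for 25.3%. The 15 astrocyte markers summed to between 540 and 595 CPM in edited and to 290 and 305 CPM in wild-type libraries. Of the 9 tested, 2 were called higher (CLU and GJA1) and 3 lower (NFIA, GLUL and ID4). AQP4 and GJB6 were at 0. CLU and GJA1 held most of the astrocyte sum, while the list's median log2 fold change was -0.53. Of the 9 tested genes, 2 lay above and 5 below wild type in every edited library. The 14 fibroblast and pericyte markers summed to 1987 CPM in clone 2, with 2024 and 763 CPM in clone 6, against 2469 and 2230 CPM in wild type. Clone 6 replicate 2 thus lay far below the other edited libraries. Of the 12 tested, 7 were called lower and 1 higher (RGS5), and none of the 14 was at 0. Without wild-type replicate 1 the 7 lower calls were 3, without replicate 2 they were 4, and RGS5 was not called in either case (edgeR adjusted p = 0.0807 and 0.0782). Neural stem markers summed to 15.6 to 16.5 CPM in edited and to 24.7 and 49.9 CPM in wild-type libraries, with 6 of 12 at 0. HES1, a Notch target, made up most of this sum, at 9.08 CPM in clone 2, with 10.0 and 14.1 CPM in clone 6, against 22.1 and 47.1 CPM in wild type, and its lower call was lost in 4 of 13 alternatives (edgeR adjusted p = 0.0196, at most 0.119). Of the other tested stem markers, PDGFRA was higher (2.05, 0.0558) and PAX6 lower (-0.64, 0.356) in every edited library, neither called. Oligodendrocyte markers summed to 104 to 146 CPM in edited and to 148 CPM in each wild-type library, with 3 of 8 at 0, and microglia and immune markers to 1.00 to 1.48 CPM in edited and to 1.70 and 2.63 CPM in wild-type libraries, with CX3CR1 at 0. Their part in the members' values was not tested.

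By the smallest root mean square difference of centred log2 CPM over the 5 libraries, the gene most like SLC6A5 and RAB3C that is not a member was C2CD4A (0.825 and 0.533), which had 6.64 CPM in clone 2, with 6.81 and 4.12 CPM in clone 6, against 0 and 0.110 CPM in wild type. PAGE1, RP11-20J1.1, ATCAY and FRMPD1 completed the nearest 5 for both members, and SLC6A5 and RAB3C themselves lay 0.530 apart. The nearest to INA included ISM1 (0.119), SFRP4, PKIB and MKRNP2. The nearest to GAD1 were CDH23 (0.0446), GJA1, TMEM156, PRPH and GALNT16. These points share the same 5 libraries, and the ranking uses the contrast that chose the members.

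The 3 coding genes on each side of SLC6A5, RAB3C, INA and GAD1 were looked up after the values were seen, to show whether the neighbourhood differed too. Around SLC6A5 the neighbours HTATIP2 and PRMT3 were not called (edgeR adjusted p = 0.695 and 0.445), DBX1, ANO5 and SLC17A6 had 0 reads, and NELL1 had 2 reads in edited and 0 in wild-type libraries. Around RAB3C only ELOVL7 was called, at 35.6 CPM in clone 2, with 36.4 and 33.5 CPM in clone 6, against 16.4 and 17.6 CPM in wild type (1.05, edgeR adjusted p = 0.0022). Around INA only NT5C2 was called, with a mean of 66.5 CPM in edited and 34.9 CPM in wild-type cells (0.93, edgeR adjusted p = 0.00237). PCGF6 (0.54, 0.0791) and USMG5 (0.35, 0.0515) were also higher in every edited library, as was RPEL1 at 1 to 3 reads a library. CNNM2 and TAF5 overlapped. Around GAD1 none of the 6 neighbours was called. SP5 (2.24, 0.0853) was higher in every edited library, with 6, 11 and 5 reads against 2 in each wild-type library, and the rest overlapped. Of all genes tested, 26.1% had every edited library above both wild-type ones.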

How the data were processed

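Total RNA of 5 samples was sequenced on Illumina HiSeq, per the labels' protocols. The files deposited by the authors hold raw counts per gene in whole numbers, 1 file a library. The submitters' processing notes name Trimmomatic, STAR, HTSeq and hg19 (GRCh37) with no version or role; the sources used here give neither the annotation release nor the strand setting. Of 63677 listed genes 5772 had an empty value, and 57905 were used. Members were matched by symbol, taking the identifier with most reads where there were several (TUBB3, whose second had 0).

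Counts were fitted in R 4.3.3 with edgeR 4.0.16 (TMM scaling, filterByExpr, quasi-likelihood F test, Benjamini-Hochberg adjustment over all 16471 genes tested). Residual degrees of freedom were 3 for the genotype and 2 for the 3-group model. The low-count filter was first grouped by genotype (15500 genes); after those counts of calls had been seen it was replaced by grouping on the 3 groups, and the first setting is kept as an alternative. The floor behind a lower bound was likewise changed after its value was seen, from the group's mean to its highest library, which gives the smaller fold. Log2 CPM used a prior count of 2. DESeq2 and other scalings, filters and library sets were alternatives. The procedure was tested on simulated data.

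The members and lists were chosen with earlier results of these data known. Named genes were the members, REST, up to 6 called genes each way per list, relatives of the members, and the 5 genes most like SLC6A5, RAB3C, INA and GAD1. Some genes that meet this rule are not reported here. Exon lengths, overlaps and neighbours came from GENCODE 29, a GRCh38 annotation that matched 52338 identifiers, and promoters from RefSeq.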

Additional observations from a re-analysis of the deposited data

How the results depend on the processing

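The count of genes called in edited against wild type was 2822 (44.6% of them higher). It was 1528 with clone 2 and clone 6 replicate 1 summed, 4274 without a filter, 4499 with the replicate block and 500 to 5971 when 1 library was left out, with 33.6 and 34% higher without a wild-type library. Clone 6 against clone 2 gave 0 calls, 2 by DESeq2, 99 without a filter and 0 to 872 with 1 library left out. Leaving out a clone 6 library sets 1 library against 1, with the spread taken from wild type. Clone 6 against wild type gave 1479, 3144 without a filter, 2569 with the replicate block and 329 to 5119 with 1 library left out. Clone 2 against wild type gave 628, 1878 without a filter, 1115 with the replicate block and 175 to 3510 with 1 library left out. The cause was not tested. Clone 6 minus clone 2 reversed without clone 6 replicate 2 for GAD1 (-0.032) and TUBB3 (0.16), with ranges over left-out libraries of -0.032 to 0.18 and -1.18 to 0.16. A filter grouped by genotype, the first setting run and therefore added after seeing the data, gave 2857, 0, 1471 and 625 calls in the 4 comparisons, in the order above.

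The replicate numbers were not treated as pairs: the labels give no shared batch, and the replicate differences of wild type and clone 6 correlated at 0.17 over 16471 genes. Edited minus wild type, the contrast that chose the members, ran over 13 alternatives from 7.03 to 9.79 for RAB3C, 2.50 to 3.81 for INA, 1.20 to 1.33 for GAD1 and -0.46 to 0.08 for TUBB3; no support is drawn from its sign. With at most 9 reads in a library, NEFL, NEFM, NEFH and MAP2 are limited by depth.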
